A study of Homo sapiens with 4 samples.

Results

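The genes described here are members of the ATP-binding cassette (ABC) transporter family, subfamilies A to G, on 4 two-colour microarrays of a human tongue squamous cell carcinoma line. Members were the non-control probes whose RefSeq symbol was ABC followed by a subfamily letter from A to G and a number, leaving out ABCA1 and ABCG1. The array files carry transcript accessions in place of gene symbols, so the symbols came from the RefSeq gene table of assembly GRCh38.p14, which named 24826 of the 34127 non-control probes. By this rule the family comprised 61 probes for 43 genes, out of 27953 genes and unnamed identifiers on the array. Subfamily A held 11 genes, B 9, C 12, D 4, E 1, F 2 and G 4. ABCF2 had no matched probe and was not analysed here.

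The experiment compared stable SAS cells carrying a lentiviral pLKO.1 short hairpin RNA against LYRIC, an alias of AEG-1 and MTDH (LYRIC shRNA-B, designated SB), with SAS control cells (SCt). According to the labels the control carried the pLKO.1 vector, whereas the study's methods name a scrambled hairpin. Both lines were selected with puromycin at 2 µg/ml for 14 days and were kept in medium with puromycin afterwards. The labels call the selected cells stable clones, and how many clones each line holds is not stated in the sources used here. SB RNA was labelled red and SCt RNA green on all 4 arrays, with 0 dye-swapped arrays, so a dye bias of a probe and an effect of the knockdown cannot be told apart. The labels call the arrays 4 biological replicates but do not say that the cells were grown separately, and p-values then cover only the spread between these arrays, which may be technical.

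ABC proteins share a nucleotide-binding cassette that hydrolyses ATP, and most of them use that energy to move lipids, metabolites, peptides or drugs across a membrane. ABCB1 (P-glycoprotein), ABCC1 (multidrug resistance protein MRP1) and ABCG2 (breast cancer resistance protein) export many chemotherapeutic agents from tumor cells, and puromycin itself is a substrate of ABCB1. MTDH has been linked to resistance against chemotherapy, which makes the level of these pumps after its knockdown a question of interest.

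Between 85.4% and 90.3% of the 43118 non-control spots on an array were well above background in the SB channel, and between 84.7% and 90.04% in the SCt channel, as judged by the flag of the scanner software. The median spot intensity was 655 to 875 for SB and 362 to 588 for SCt, so the red channel was brighter on every array before normalization. With 4 arrays the precision of each ratio is limited, and 0 spots were marked as saturated. Pearson's r between the log2 ratios of a pair of arrays was taken over the tested probes with a ratio on all 4 arrays. It ranged from 0.0459 (arrays 1 and 4) to 0.461 (arrays 1 and 3), a description across probes, which are not independent replicates.

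The knockdown itself was clear on each array. The background-subtracted intensity of the MTDH probe was 1424, 1818, 1848 and 1580 in the SB channel of arrays 1 to 4 and 6317, 9716, 11016 and 10896 in the SCt channel. The normalized log2 ratio of SB over SCt was -3.18, -3.01, -3.12 and -3.41, a mean of -3.18 ± 0.17 (SD, n = 4), or 9.07-fold lower in SB (limma adjusted p = 5.19e-10). All arrays lay far below 0, with a spread much smaller than the difference.

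The labelled cell type was checked with markers of squamous epithelium. All 12 of these markers (KRT5, KRT14, KRT17, KRT6A, KRT8, KRT18, EPCAM, CDH1, TP63, SFN, DSG3 and PKP1) passed the flag of the scanner software in SB and SCt on each array. So did all 7 markers of blood, endothelial, connective and muscle cells (PTPRC, CD3E, PECAM1, CDH5, COL1A1, DCN and DES). The flag was thus passed by markers that a pure epithelial line should lack, and it is read below as a signal on the array, not as proof of expression. In limma, 0 of the 12 and 0 of the 7 passed an adjusted p of 0.05, with 6 and 0 at an unadjusted p under 0.05, where 18.1% of all genes were.

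Of the 43 ABC genes, 35 (81.4%) were well above background in SB and SCt alike on each of the 4 arrays, judged by their brightest probe. Counted by probe, 49 of the 61 ABC probes passed, against 82.7% of all 34127 probes of the array. In subfamily A 9 of 11 genes passed, in B 7 of 9, in C 10 of 12, in D 3 of 4, in E and F 3 of 3 and in G 3 of 4. All 9 drug exporters examined were among them, namely ABCB1, ABCC1, ABCC2, ABCC3, ABCC4, ABCC5, ABCC10, ABCC11 and ABCG2.

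**Figure D1:**
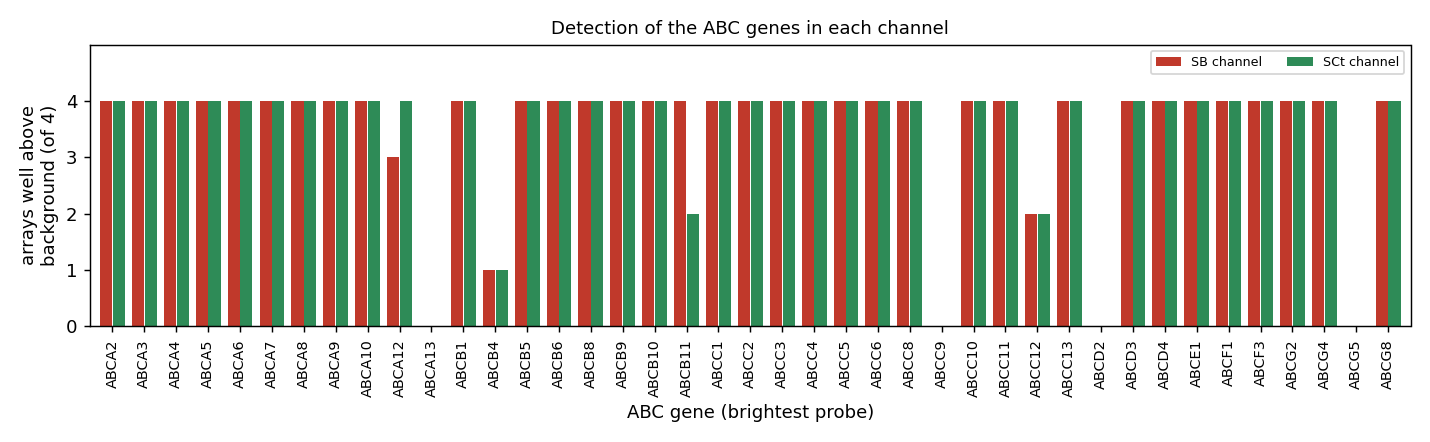
Number of arrays (of 4) on which the brightest probe of each of 41 of the 43 ABC genes was well above background, for the SB channel (red bars) and the SCt channel (green bars). Both bars reach 4 for 33 of those shown, and 4 genes (ABCA13, ABCC9, ABCD2 and ABCG5) have no bar.

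The remaining 8 genes did not meet this rule. ABCA13, ABCC9 (the sulfonylurea receptor of muscle), ABCD2 (a peroxisomal carrier of very long chain fatty acids) and ABCG5 (a sterol transporter that pairs with ABCG8) failed the flag in both channels throughout. ABCB4, the phosphatidylcholine floppase of bile, passed on 1 array and ABCC12 on 2 arrays in each channel. ABCB11, the bile salt export pump, passed on 4 SB arrays and 2 SCt arrays, and ABCA12, the lipid transporter of the skin barrier, on 3 SB arrays and 4 SCt arrays. No ABC gene was well above background on all arrays of one channel and on none of the other.

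The signal behind the flag is given here for 4 of the drug exporters. For ABCB1 the background-subtracted intensity was 13398 to 20237 in SB and 8894 to 11778 in SCt over the 4 arrays. For ABCC1 it was 1626 to 2031 in SB and 975 to 1562 in SCt. ABCG2 passed the flag at 79 to 102 in SB and 50 to 124 in SCt, close to the offset of 50 that was added to every intensity, which pulls the ratio of so dim a probe toward 0. ABCC11 passed at 59.5 to 93 in SB and 37 to 63.5 in SCt. These intensities depend on the probe and the dye, and they give no order of transcript levels between the genes.

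The ratios of SB over SCt were tested for the 37 genes that were well above background on all 4 arrays in at least 1 channel, each by its brightest tested probe. Of these, 35 passed in both channels, ABCB11 only through SB and ABCA12 only through SCt. ABCD3 was the 1 gene that rose and ABCB10 the 1 gene that fell at a limma adjusted p under 0.05. Over all 23484 genes tested, 1.26% rose and 2.26% fell, 3.51% in either direction, so 2 of 37 ABC genes is a share near that background. At an unadjusted p under 0.05 there were 11 ABC genes, 4 higher and 7 lower, against 18.1% of all genes. The count of calls depended on the processing. Median centring in place of loess called 9 ABC genes higher and 7 lower, and 8937 of the 28505 tested probes of the array. With loess kept and an offset of 0 in place of 50, 0 ABC genes were higher and 0 lower, with 817 probes of the array called. The ratios of the scanner software, which differ in both background and dye correction, also gave 0 higher and 0 lower.

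The family as a whole lay around 0. The median log2 ratio of the 37 genes was 0.00096, against 0.013 over all genes tested, with 19 genes above 0 and 18 below. The medians on arrays 1 to 4 were -0.054, 0.022, 0.014 and 0.050, on both sides of 0. The ratio had the same sign on all 4 arrays in 6 genes that were higher in SB and 6 that were lower, where 13.9% and 12.2% of all genes did so. None of the 37 means exceeded 0.5 in size, and the means ran from -0.37 (ABCB5) to 0.28 (ABCC4).

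**Figure D2:**
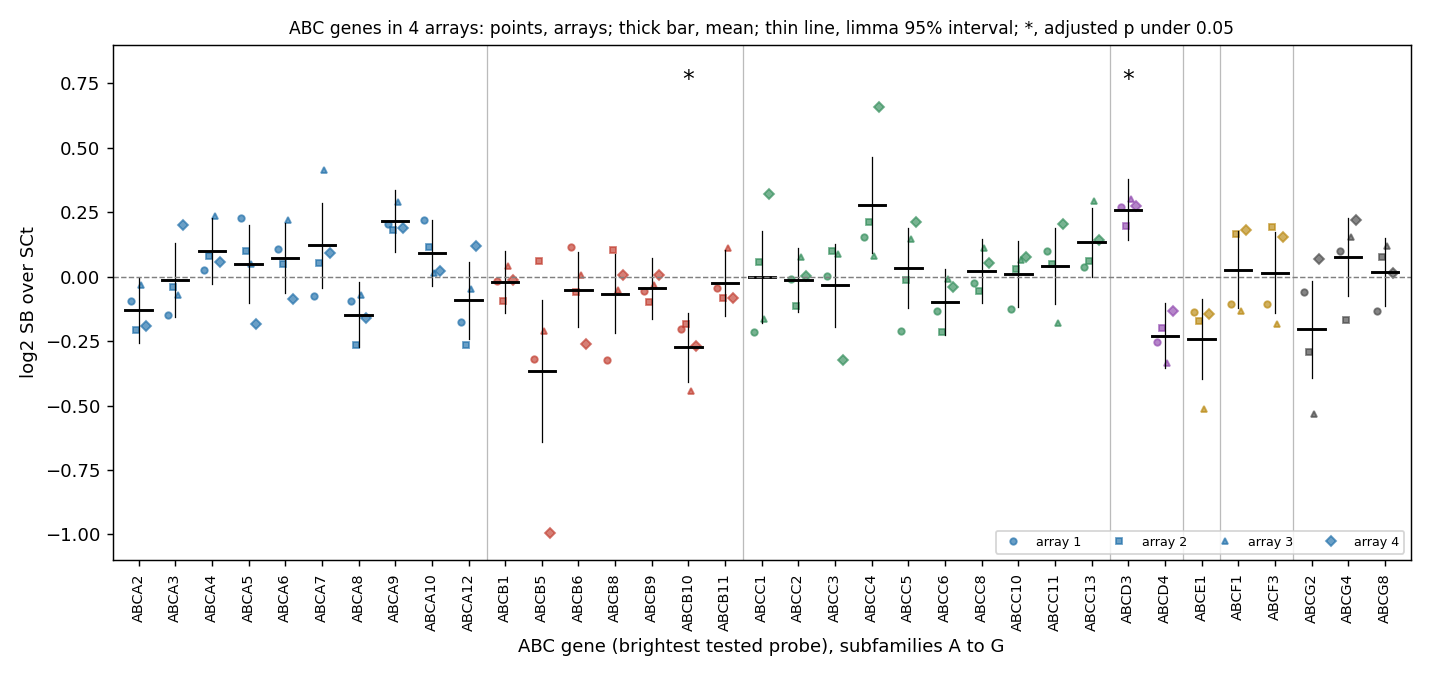
Log2 ratio of SB over SCt for 35 of the 37 tested ABC genes, ordered by subfamily. Each point is 1 of the 4 arrays, the thick bar is the mean, the thin line is the limma 95% interval, and asterisks mark ABCB10 (-0.27) and ABCD3 (0.26), the genes with an adjusted p under 0.05. Most intervals cross 0, and ABCB5 has the widest spread.

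By subfamily, the median log2 ratio was 0.061 for the 10 tested genes of A, -0.048 for the 8 of B, 0.016 for the 10 of C, 0.050 for the 3 of D, 0.015 for the 3 of E and F together, and 0.019 for the 3 of G. In subfamily B, 7 of 8 genes were below 0, with array medians of -0.050, -0.072, -0.043 and -0.048. Subfamily A was above 0 in 6 of 10 genes, with array medians of -0.025, 0.051, 0.032 and 0.040, and of all genes tested 55.4% were above 0. Under the 15 other processing settings the median of A kept its sign (0.024 to 0.11) and so did that of B (-0.070 to -0.032), whereas those of C (-0.011 to 0.094), D (-0.028 to 0.22), E and F (-0.044 to 0.11) and G (-0.023 to 0.087) took both signs.

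Subfamily A moves lipids, and none of its 10 tested genes passed the adjusted threshold (3.51% of all genes did). At an unadjusted p under 0.05 there were 3 (18.1% of all genes). ABCA9 had log2 ratios of 0.20, 0.18, 0.29 and 0.19 on arrays 1 to 4. It was higher in SB on every array with little spread, a mean of 0.22 ± 0.050 (SD, n = 4), and missed the threshold (limma adjusted p = 0.0535), which it passed under 3 of 15 other settings, among them without array 4 (limma adjusted p = 0.0442). The probe is bright and its ratio depended on the dye correction, at 0.51 with median centring (limma adjusted p = 0.000570). ABCA8, a transporter implicated in cholesterol efflux, had -0.094, -0.27, -0.072 and -0.16. Its mean of -0.15 ± 0.087 (SD, n = 4) was the lowest of the subfamily and below 0 on every array (limma adjusted p = 0.191). Its probe is dim, at 47 to 89.5 in SB and 46.5 to 68.5 in SCt, and the size of its ratio depended on the processing. It was -0.28 with an offset of 0 (limma adjusted p = 0.0765) and -0.27 with the ratios of the scanner software (limma adjusted p = 0.132), and it passed with median centring, at -0.40 (limma adjusted p = 0.00190). ABCA2, a transporter of lysosome-like vesicles, was also below 0 on each array by its brightest probe, at -0.13 ± 0.083 (SD, n = 4), while its other probe averaged 0.068. ABCA8, ABCA9, ABCA6, ABCA10 and ABCA5 lie next to each other in the genome, and their means of -0.15, 0.22, 0.073, 0.093 and 0.049 did not share a sign. The phospholipid transporters ABCA3, ABCA4 and ABCA7 averaged -0.015, 0.10 and 0.12.

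ABCB1 did not pass the test. The log2 ratio of its brightest probe was -0.018, -0.094, 0.042 and -0.014 on arrays 1 to 4, values that scattered around 0. The mean was -0.021 ± 0.056 (SD, n = 4), with a limma 95% interval of -0.14 to 0.10 (limma adjusted p = 0.879). Here and below an interval covers a single probe and is not adjusted for the number of probes tested. A second ABCB1 probe is printed 10 times on each array and gave means of 0.037, -0.011, 0.020 and -0.057. The SD between its spots within an array was 0.088 to 0.19, which describes single spots and not the precision of these means. This probe is dim, at 54.5 to 88.3 in SB and 43.2 to 62.6 in SCt, near the offset that pulls ratios toward 0. The brightest probe read 13398 to 20237 in SB, although both probes cite the same ABCB1 transcript. Why their signals differ so widely was not tested. The ABCB1 signal and interval thus rest on the brightest probe alone, and the dim probe is a weak check on them. With median centring in place of loess the brightest probe moved to 0.19 (limma adjusted p = 0.0454), so the sign depends on how the dye trend is removed.

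ABCB5, a transporter described in melanoma and in progenitor cells, had the lowest mean of all 37 genes. Its brightest probe gave -0.32, 0.059, -0.21 and -0.995 on arrays 1 to 4. The mean of -0.37 ± 0.45 (SD, n = 4) rested largely on array 4, and array 2 was above 0 (limma adjusted p = 0.142). Another ABCB5 probe, dim and printed 10 times, gave -0.038, -0.074, -0.13 and -0.10, and the last one failed the flag throughout. The probes cite different transcripts of ABCB5, and isoforms were not tested. ABCB11, near the detection limit, averaged -0.024 ± 0.093 (SD, n = 4).

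ABCB6, ABCB8, ABCB9 and ABCB10 sit in mitochondria and lysosomes, and all 4 were well above background in both channels. ABCB10, a transporter of the inner mitochondrial membrane needed for heme synthesis, had background-subtracted intensities of 4745, 4959, 5365 and 4102 in SB and 2553, 3637, 4822 and 3094 in SCt. After normalization its log2 ratios were -0.20, -0.18, -0.44 and -0.27. Every array was below 0, array 3 the furthest. The mean was -0.27 ± 0.12 (SD, n = 4), or 1.21-fold lower in SB (limma adjusted p = 0.0305). Its second probe pointed the same way on every array, at -0.074, -0.11, -0.43 and -0.15, but did not pass (limma adjusted p = 0.149). The call of ABCB10 was lost when array 1, 2 or 3 was left out, with limma adjusted p of 0.0616, 0.0815 and 0.168, and with median centring (limma adjusted p = 0.107). Averaging its probes ended the call too, at -0.23 (limma adjusted p = 0.0708), and so did an offset of 0 (limma adjusted p = 0.0620). The call held under 6 of the 15 other settings, and the mean stayed below 0 under all of them, from -0.30 to -0.15.

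ABCB6, ABCB8 and the lysosomal peptide transporter ABCB9 averaged -0.050, -0.066 and -0.045. Of these 4 genes ABCB10 was the 1 past the threshold, and a difference between it and the others was not tested.

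The multidrug resistance proteins of subfamily C export glutathione, glucuronide and nucleotide conjugates. Of the 8 tested, 0 passed an adjusted p of 0.05 in limma (3.51% of all genes did). Of these 8 only ABCC4 had an unadjusted p under 0.05 (18.1% of all genes did). ABCC1 gave -0.21, 0.059, -0.17 and 0.32 on arrays 1 to 4. The signs were split evenly and the mean was -0.00036 ± 0.24 (SD, n = 4), with a limma 95% interval of -0.18 to 0.18. ABCC2, the canalicular pump for conjugates, gave -0.0078, -0.11, 0.075 and 0.0010, with an interval of -0.14 to 0.11. ABCC3, its basolateral counterpart, gave 0.0014, 0.10, 0.089 and -0.32. Only array 4 lay clearly below 0 for ABCC3, and its interval was -0.19 to 0.13.

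ABCC4, an exporter of cyclic nucleotides and nucleoside analogues, had the highest mean of the family. Its log2 ratios were 0.15, 0.21, 0.082 and 0.66 on arrays 1 to 4. All were above 0, and array 4 was more than 3 times as far from 0 as the next. The mean was 0.28 ± 0.26 (SD, n = 4) and did not pass (limma adjusted p = 0.103), and without array 4 it was 0.15. It passed under 1 of 15 other settings, median centring (limma adjusted p = 0.0336). The related nucleotide exporter ABCC5 was ambiguous, since its brightest probe averaged 0.034 and the others -0.21 and -0.15. The dimmest of these, at -0.15, cites a different ABCC5 transcript from the brighter probes, and isoforms were not tested. The middle ABCC5 probe by brightness was below 0 on every array, at -0.14, -0.17, -0.25 and -0.27 (limma adjusted p = 0.0639).

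ABCC10, which confers resistance to taxanes, averaged 0.011 ± 0.094 (SD, n = 4) with an interval of -0.12 to 0.14. ABCC11, an exporter of nucleotide analogues including fluoropyrimidine metabolites, averaged 0.043 ± 0.16 (SD, n = 4) with an interval of -0.10 to 0.19, and with median centring it moved to -0.22 (limma adjusted p = 0.0292). ABCC6, the gene of pseudoxanthoma elasticum, has near-identical pseudogene copies, so its probes are reported as uncertain. Its 3 tested probes averaged -0.10, 0.070 and 0.031, and the first of these moved to 0.19 with median centring (limma adjusted p = 0.0482). ABCC8, the sulfonylurea receptor of the pancreatic potassium channel, averaged 0.021 ± 0.076 (SD, n = 4), and the transcribed pseudogene ABCC13 averaged 0.13 ± 0.11 (SD, n = 4).

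Subfamily D carries fatty acids and cobalamin into or out of organelles, and it held the 1 gene that rose. ABCD3, the abundant peroxisomal membrane protein PMP70, had background-subtracted intensities of 63737, 79826, 91541 and 72686 in SB and 21294, 37999, 38779 and 33994 in SCt on arrays 1 to 4. The normalized log2 ratios were 0.27, 0.20, 0.30 and 0.27. All arrays were above 0 and close together. The mean was 0.26 ± 0.045 (SD, n = 4), or 1.20-fold higher in SB (limma adjusted p = 0.0227). A second probe of the same ABCD3 transcript gave -0.071, -0.12, 0.12 and 0.47, with both signs, and did not pass (limma adjusted p = 0.581). No probe here cited another ABCD3 transcript, and isoforms were not tested.

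The size of the ABCD3 ratio depended on the processing. It was 0.62 with median centring in place of loess. With the ratios of the scanner software, which differ in both background and dye correction, it was 0.20 and the call was lost (limma adjusted p = 0.129). An offset of 0 with loess kept ended the call too, at 0.25 (limma adjusted p = 0.0586). So did averaging the probes of the gene, at 0.18 (limma adjusted p = 0.158). The call was also lost without array 1, 2 or 3, at limma adjusted p of 0.0764, 0.0853 and 0.128. The call held under 7 of the 15 other settings, and the mean was above 0 under all of them.

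ABCD4, a lysosomal protein needed for the release of cobalamin, had log2 ratios of -0.25, -0.20, -0.34 and -0.13. It was lower in SB on every array, at -0.23 ± 0.086 (SD, n = 4), and lay just beyond the threshold (limma adjusted p = 0.0511). It passed under 5 of the 15 other settings, among them without array 4 (limma adjusted p = 0.0159).

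**Figure D3:**
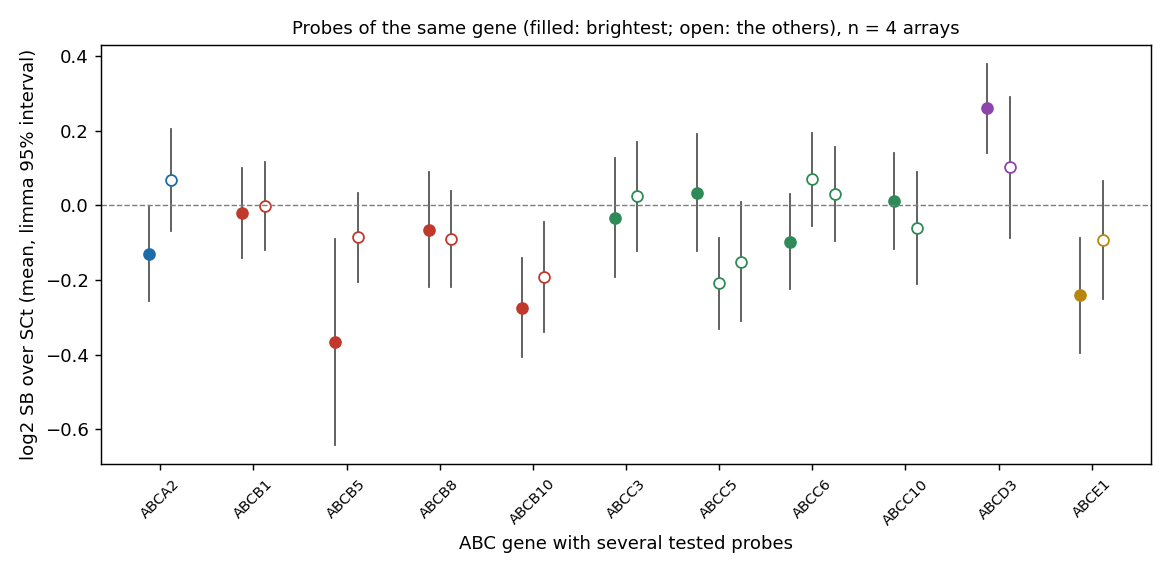
Mean log2 ratio of SB over SCt with the limma 95% interval for 11 of the 12 ABC genes with several tested probes (n = 4 arrays). Filled points are the brightest probe of a gene and open points its other tested probes. For ABCD3 the brightest probe is at 0.26 and the other at 0.10.

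Probes of the same gene were compared in the 12 ABC genes with several tested probes. Their means had opposite signs in 5 genes, namely ABCA2, ABCC3, ABCC5, ABCC6 and ABCC10. The widest gap between probes was 0.28 (ABCB5), so 0 genes passed the limit of 0.5. The means of the tested genes ran only from -0.37 to 0.28, which put a gap over 0.5 nearly out of reach. The 0 therefore does not show that probes agree. For both ABCB10 and ABCD3 a single probe passed the adjusted threshold. In ABCA8, ABCB5, ABCC6 and ABCC13 a further probe failed the flag throughout although the brightest probe passed on all arrays.

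Subfamilies E and F are soluble proteins of translation without a membrane domain. ABCE1, which splits ribosomes for recycling, had log2 ratios of -0.14, -0.17, -0.51 and -0.15. It was below 0 on every array, with array 3 far from the others, and its mean was -0.24 ± 0.18 (SD, n = 4) (limma adjusted p = 0.0867). With median centring in place of loess the ABCE1 difference disappeared, at -0.0046 (limma adjusted p = 0.967). Without array 4 it passed, at -0.27 (limma adjusted p = 0.0185). Its second probe averaged -0.092. ABCF1, a factor of translation initiation, gave -0.10, 0.16, -0.13 and 0.18, and ABCF3, a relative of a yeast factor that signals amino acid starvation, gave -0.10, 0.19, -0.18 and 0.16. Both were negative on arrays 1 and 3 and positive on arrays 2 and 4, so their means of 0.026 and 0.015 average out a difference between arrays.

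In subfamily G, ABCG2 had background-subtracted intensities of 79, 90.5, 102 and 91 in SB and 50, 91.5, 124 and 60 in SCt. Its log2 ratios were -0.061, -0.29, -0.53 and 0.067. Array 3 was the lowest and array 4 was above 0. The mean was -0.20 ± 0.26 (SD, n = 4), with a limma 95% interval of -0.39 to -0.017, and did not pass (limma adjusted p = 0.224). Without array 4 it was -0.30 and passed (limma adjusted p = 0.0117), and with median centring it was -0.41 and passed as well (limma adjusted p = 0.00520). Without array 3 it was -0.10 (limma adjusted p = 0.662). It was -0.42 with the ratios of the scanner software, -0.31 with an offset of 0 and -0.30 with no background correction, and passed under none of these. The ratio of ABCG2 was thus below 0 under every setting run. Its size depended on the array, the background and the normalization, and its call on the array and the normalization. ABCG4, a sterol exporter of the nervous system, averaged 0.077 ± 0.17 (SD, n = 4) and ABCG8, which pairs with ABCG5, averaged 0.019 ± 0.11 (SD, n = 4).

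**Figure D4:**
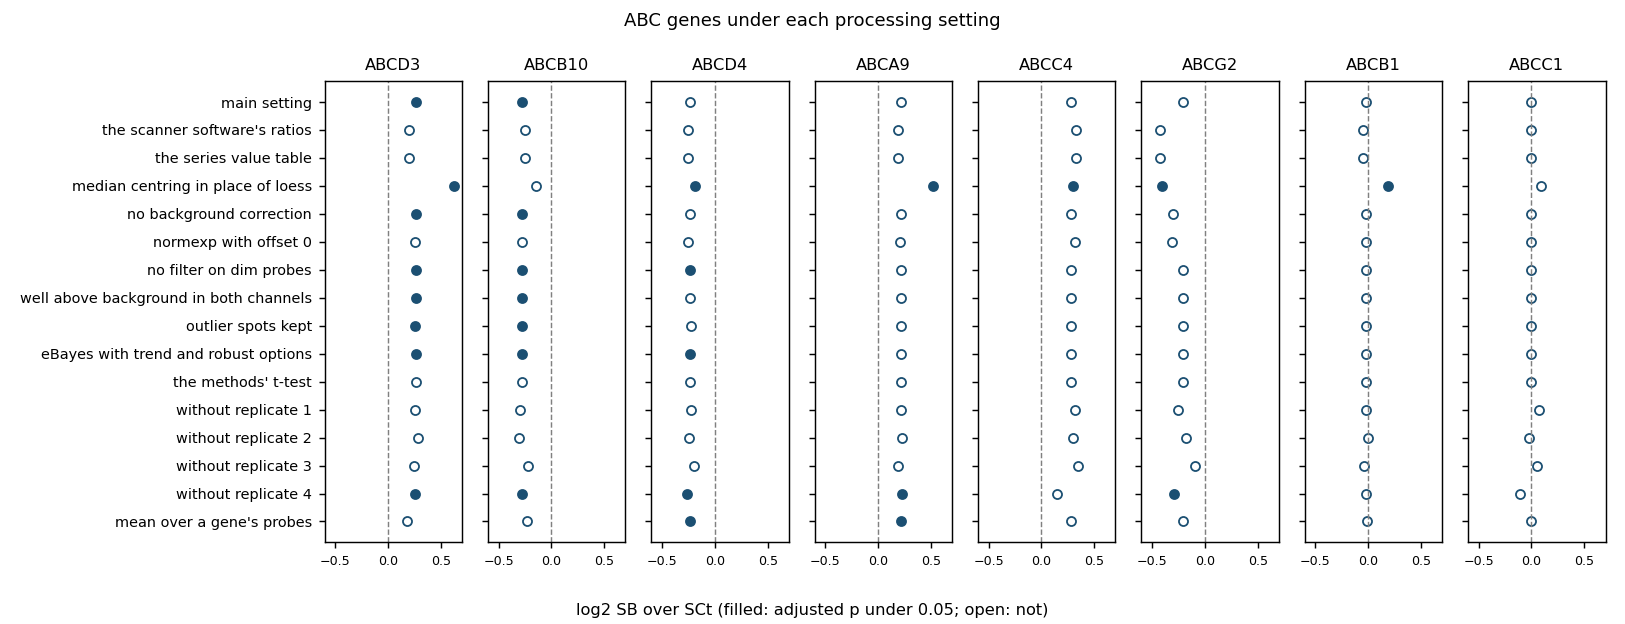
Log2 ratio of SB over SCt of 8 ABC genes under the main setting and 15 other processing settings. Filled points have an adjusted p under 0.05 and open points do not. ABCD3 and ABCB10 keep their sign throughout, ABCG2 is below 0 throughout, and ABCB1 leaves the neighbourhood of 0 only with median centring, at 0.19.

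Genes that work with the transporters were examined in lists, to be set beside the 1.26% of all genes that rose, the 2.26% that fell and the 18.1% at an unadjusted p under 0.05. Of the ABC proteins and pseudogenes with other names, 6 of 7 were on the array and 0 passed an adjusted p of 0.05 in limma, with 3 at an unadjusted p under 0.05. The highest was ABCA11P at 0.21 ± 0.054 (SD, n = 4), and the lowest was TAP2, a subunit of the peptide transporter of antigen presentation, at -0.24 ± 0.16 (SD, n = 4). ABCA11P passed without array 4 (limma adjusted p = 0.0382) and TAP2 without array 1 (limma adjusted p = 0.0401). The other TAP2 probe, a dim one, was above 0 on every array with a mean of 0.031, and the mean over both probes was -0.10 (limma adjusted p = 0.345). The median of the 6 was -0.093. Of the partners of ABC proteins, 14 of 15 were tested, 1 fell and 0 rose, with 5 at an unadjusted p under 0.05, a median of -0.046 and 12 of 14 below 0, where 55.4% of all genes were above 0. PDZK1, a scaffold that binds the tails of ABCC2 and other transporters, was the one that fell, with log2 ratios of -0.22, -0.37, -0.57 and -0.24 and a mean of -0.35 ± 0.16 (SD, n = 4) (limma adjusted p = 0.0143). The call of PDZK1 was lost without array 2 or 3, at limma adjusted p of 0.0712 and 0.113. Its probe is dim, at 82.5 to 154 in SB and 75 to 177 in SCt, and the size of its ratio depended on the processing, at -0.62 with the ratios of the scanner software, -0.53 with an offset of 0 and -0.52 with median centring. PEX3, which inserts membrane proteins such as ABCD3 into peroxisomes, had a mean of -0.20 by its brightest probe and -0.30 by its other probe, which passed. HBS1L, which works with ABCE1 in ribosome rescue, averaged -0.035 by its brightest probe, while 2 of its 3 tested probes passed, the lowest at -0.42. The 2 that passed cite a different HBS1L transcript from the brightest probe, and isoforms were not tested. The highest partner was KCNJ11, the potassium channel that ABCC8 regulates, at 0.039 ± 0.067 (SD, n = 4).

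Among 19 transcription regulators of ABC genes, 18 were tested, 1 rose (1.26% of all genes did) and 0 fell, with 2 at an unadjusted p under 0.05 (18.1% of all genes) and a median of 0.0023. YBX1, a factor described as an activator of ABCB1, was the one that rose, with log2 ratios of 0.33, 0.28, 0.21 and 0.40 and a mean of 0.30 ± 0.083 (SD, n = 4) (limma adjusted p = 0.0136), while its other probe averaged 0.14 and did not pass. The call of YBX1 was lost without array 1, 2 or 3, at limma adjusted p of 0.0541, 0.0674 and 0.0608, and with the ratios of the scanner software (limma adjusted p = 0.171). The probe is bright, and the size of its ratio ran from 0.19 with those ratios to 0.69 with median centring. The lowest regulator was SP1 at -0.13 ± 0.090 (SD, n = 4). The xenobiotic receptor NR1I2, a known regulator of ABCB1, failed the flag throughout. TFCP2, a factor reported to act downstream of MTDH, averaged 0.037 by its brightest probe and -0.073 by its other probe.

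Of 20 genes of drug uptake and of efflux by other proteins, 17 were tested and 0 passed an adjusted p of 0.05 in limma, with 2 at an unadjusted p under 0.05 (18.1% of all genes) and a median of -0.0058. The highest was SLC31A1, the copper importer that also admits cisplatin, at 0.16 ± 0.049 (SD, n = 4), which passed with median centring, at 0.25 (limma adjusted p = 0.0139). Its other probe averaged 0.037, and the mean over both was 0.10 (limma adjusted p = 0.339). The lowest was MVP, the major vault protein, at -0.26 ± 0.17 (SD, n = 4) (limma adjusted p = 0.0588), with log2 ratios of -0.51, -0.18, -0.16 and -0.19. Array 1 was far from the others, and without it the mean was -0.18 (limma adjusted p = 0.186), while without array 4 it passed (limma adjusted p = 0.0124). ATP7A, a copper exporter, averaged 0.0065 by its brightest probe, while another of its probes, at -0.25, passed.

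In these cells the main drug exporters of the ABC family gave signal in both lines by their brightest probes. None of ABCB1, ABCC1, ABCC2, ABCC3, ABCC4, ABCC5, ABCC10, ABCC11 and ABCG2 passed an adjusted p of 0.05 in limma under the main setting, with MTDH 9.07-fold lower. Over all genes tested 3.51% passed in either direction, so the absence of calls among so few genes is near that background. With median centring ABCB1 (0.19), ABCC4 (0.29), ABCC11 (-0.22) and ABCG2 (-0.41) passed, and after loess ABCG2 passed without array 4 (-0.30), so the absence of calls holds for the main setting and not for every one. A p beyond the threshold does not show equal levels. Under the main setting the 95% intervals of ABCB1, ABCC1, ABCC2 and ABCC10 lay within 0.18 of 0 on the log2 scale, whereas those of ABCC4 and ABCG2 reached 0.46 and -0.39. These are the intervals of the brightest probes, and that of the other ABCC10 probe was -0.21 to 0.090. ABCB1 lay outside that bound with median centring.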

How the data were processed

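RNA of SB and SCt cells was reverse transcribed, labelled red (SB) and green (SCt) and hybridized together on 4 arrays, all positions of one slide read in one scan, so slide and scan could not be tested as batches. The spot and background intensity values were deposited as medians by the Agilent Feature Extraction software (version 10.5.1.1). The log10 ratios were also deposited by the authors as computed by that software from background-subtracted, dye-normalized signals. The series value table deposited by the authors holds log2 ratios of SB over SCt, equal to the processed signals of the same arrays within 0.001 for 98.7% to 99.1% of probes, and its column medians were -0.017, 0.022, 0.0056 and 0.014; its direction follows the red over green ratio.

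In limma (version 3.58.1, R 4.3.3), intensities of all 44495 spots were corrected with normexp (offset 50), 1377 control spots and outlier spots (1.89% to 2.71% per array) were left out, and loess was fitted to the ratios of each array. The plan named mean signals, and the files used here hold medians. Spots of a probe were averaged. Tested were probes that carried the flag for a signal well above background in SB on each of the 4 arrays, or in SCt on each, with a ratio left on 2 or more, namely 28505 of 34127 probes. The mean log2 ratio was tested against 0 with lmFit and eBayes, with Benjamini-Hochberg adjustment over all tested probes. A gene was represented by its brightest tested probe. With 4 arrays an exact two-sided sign-flip test cannot go below p = 0.125 and was not used. The loess and limma steps were tested on simulated ratios with planted changes larger than any ABC mean reported here. Background correction, the filter, spot averaging and the choice of probe were not part of that test. It therefore does not bear on calls as small as those of ABCD3 and ABCB10.

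A probe was counted as well above background on an array if more than 50% of its spots carried the flag. Named were MTDH, every ABC gene with a probe past the threshold, the highest and lowest tested member of each subfamily, the drug exporters ABCB1, ABCC1, ABCC2, ABCC3, ABCC4, ABCC5, ABCC10, ABCC11 and ABCG2, members whose probes differed by over 0.5 or in their call, and the called, highest and lowest genes of each list. Some items that these rules or the lists include are not reported here by name, and the counts and medians of the family include them. Others (such as ABCA2, ABCF3, PEX3, HBS1L and TFCP2) were named after their values were seen. The members and lists were chosen with earlier results of these data known. Alternatives concerned the source of the ratios (scanner software or series value table), the background (none, or offset 0), the normalization (median centring), the filter (absent, or required of SB and SCt alike), outlier spots (retained), the model (eBayes with trend and robust, or the methods' t-test), single arrays (omitted in turn) and the averaging of all tested probes of a gene.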

Additional observations from a re-analysis of the deposited data

Results flagged for a closer look

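For ABCE1, the log2 ratio on array 3 was -0.51, while the other arrays lay between -0.17 and -0.14. The gap of array 3 to its nearest neighbour was 0.908 of the whole range, above the 95% critical value of Dixon's ratio for 4 values. Chance gives about 5% of such groups a gap of this size, and this was 1 of the 37 tested ABC genes. Without array 3 the mean of ABCE1 was -0.15 (limma adjusted p = 0.314). The second ABCE1 probe was also lowest on array 3, at -0.35. What set array 3 apart was not tested.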

How the results depend on the processing

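The log2 ratio of MTDH kept its direction under all 15 other settings and its call under all but the methods' t-test, which gave -3.18 with an adjusted p of 0.143. That test called 0 probes (0 higher, 0 lower), 0 ABC genes higher, 0 lower, 0 partners and 0 regulators after adjustment, and 3936 probes and 5 ABC genes at the unadjusted threshold of the methods. The count of ABC genes well above background in both channels was 35, or 36 on at least 3 arrays, 39 on at least 1 array and 35 by any probe.

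Median centring in place of loess raised the probes called from 1055 (376 higher, 679 lower) to 8937 (5599 higher, 3338 lower), and the share of calls that were higher from 35.6% to 62.6%. It called 9 ABC genes higher and 7 lower, 6 regulators and 4 uptake and efflux genes. It moved the median log2 ratio of the ABC genes to 0.054, of subfamily C to 0.094 and of subfamily D to 0.22. It reversed ABCB1 to 0.19, ABCC11 to -0.22 and ABCC6 to 0.19. Loess removes a trend of the ratio with brightness that median centring leaves in, and with one dye orientation neither can be checked against a swap.

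With the ratios of the scanner software, 756 probes were called, 225 of them higher and 531 lower, and 0 ABC genes were higher, 0 lower and 0 regulators called. With the series value table, 698 probes were called, 224 of them higher and 474 lower, with 0 ABC genes higher, 0 lower and 0 regulators. An offset of 0 called 0 ABC genes higher and 0 lower and put the median of subfamily B at -0.067, and no background correction put it at -0.061. Without a filter 2 ABC genes were lower. The eBayes trend and robust options called 2 ABC genes lower, 1 ABC protein with another name, 2 partners and 1 uptake or efflux gene. Averaging all tested probes of a gene called 2 partners, 1 ABC gene higher and 1 lower. These were ABCA9 (limma adjusted p = 0.0485) and ABCD4 (limma adjusted p = 0.0483), while the calls of ABCD3 and ABCB10 were lost.

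With each array left out in turn, 204 to 1977 probes were called (68 to 851 higher, 136 to 1126 lower), 0 to 2 ABC genes higher and 0 to 4 lower. The lists gave 0 to 1 ABC proteins with other names, 0 to 4 partners, 0 to 1 regulators and 0 to 2 uptake and efflux genes. The median of subfamily A ran from 0.024 to 0.11 and that of B from -0.070 to -0.032. The highest counts of probes and of ABC genes came without array 4 and the lowest probe count without array 3. Apart from the fewer arrays of these fits, the causes of these differences were not tested. Dim probes such as ABCG2, ABCC11, ABCA8 and ABCB11 are limited by their signal over background.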
